A study of Rattus norvegicus with 8 samples.

Results

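Rat granulosa cells (GCs) expressing PKA-CQR, a mutant catalytic subunit of protein kinase A (PKA), were compared with control GCs 24 hr. after transduction. The arrays were chosen by their labels, and the comparison took 3 PKA-CQR arrays and 2 EGFP arrays of the 8 in the series, across 13915 named genes. GCs were isolated from ovaries of 24-day-old female Sprague-Dawley rats and cultured in M199 medium. Controls were transduced with lentivirus encoding EGFP, which is a fluorescent marker, and the others with lentivirus encoding PKA-CQR. All cultures also contained testosterone, which GCs convert to estradiol, so that the controls carry a virus and an androgen but no PKA stimulus. A further 3 arrays of GCs given EGFP lentivirus and FSH at 100 ng/ml show where PKA-CQR differs from the hormone. They also entered the shared estimate of spread in the tests of PKA-CQR against EGFP.

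In a growing follicle FSH binds its receptor on GCs, cAMP rises, and cAMP frees the catalytic subunits of PKA from their regulatory subunits. The free subunits phosphorylate CREB and other proteins, and GCs acquire aromatase, LH receptors and the enzymes of steroid synthesis. PKA-CQR binds regulatory subunits poorly, so it is active without cAMP and is not held at A-kinase anchoring proteins, the scaffolds that place PKA beside its substrates. It is expressed from a virus and accumulates over hours, which limits it as a model of a brief hormone pulse. The comparison asks which transcripts change when PKA alone is active.

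RNA of each culture was hybridized to 1 Affymetrix rat array, and the deposited values are log2 signals after quantile normalization. The array medians lay between 8.37 and 8.44, and correlations within the EGFP and the PKA-CQR group were 0.995 or above over genes. The PKA-CQR arrays correlated with the EGFP arrays at 0.982 to 0.988. RNA quality was read from control probe sets for beta-actin, whose 3′ signal exceeds the 5′ signal more in degraded RNA. The excess on the log2 scale was 1.02 in EGFP replicate 1, 1.53 in EGFP replicate 2 and 1.34 to 1.66 in the PKA-CQR arrays. EGFP replicate 1 was lowest, and results that change without this array are given below. Leaving out either EGFP array left 1 control, so a call lost there can reflect lower precision as well as that array's values. A gene was said to rise or fall when its difference of mean log2 signals had an adjusted p under 0.05 by limma. For PKA-CQR over EGFP the means are of 3 and 2 arrays, and the spread was estimated over all 8 arrays. The replicates are labelled as biological. Since each array measures a whole culture, fewer cells of a type and less RNA per cell cannot be told apart.

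The labelled cell type was checked against markers. *Foxl2*, a transcription factor that defines GCs, was at 12.94 and 13.17 in EGFP arrays and at 13.28, 13.24 and 13.36 in PKA-CQR arrays, at the 98.9th percentile of all genes. Of 14 measured GC markers 6 rose and 1 fell (0 without EGFP replicate 1), and their summed linear signal was 54790 and 57062 in EGFP arrays and 81929 to 85888 in PKA-CQR arrays. The GC list holds *Cyp19a1*, *Inha*, *Inhbb* and *Hsd17b1*, which are given below as responses to PKA-CQR. Its counts and sums therefore do not check identity apart from the treatment. By limma 0 of 23 measured markers of macrophages and leukocytes were called, with 1 at an unadjusted p under 0.05 (0 by the unmoderated test of the methods). *Ptprc*, the leukocyte common antigen, lay at the 6th percentile. Of 12 endothelial markers only *Sox18* rose, while *Pecam1* had a difference of -0.02 (adjusted p = 0.953). Markers of smooth muscle and pericytes moved with the groups. Of 14 of these, 5 fell and 9 were not called, and their summed linear signal was 16993 and 9943 in EGFP arrays against 4273 to 5099 in PKA-CQR arrays. *Prkaca*, the gene whose mutant product was transduced, was at 8.27 and 8.64 in EGFP arrays and at 8.48, 8.33 and 8.88 in PKA-CQR arrays (difference 0.11, SE 0.23, adjusted p = 0.837). Whether its probe set reads the viral transcript is not known, so it does not check the labels.

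PKA-CQR up-regulated 902 genes (6.48% of those tested) and down-regulated 837 (6.02%). These shares are the background for the counts of each gene list below. At 2-fold or more, 215 genes rose (1.55%) and 156 fell (1.12%). Rises reached further than falls, since 17 genes rose 10-fold or more and 6 rose 30-fold or more, while 8 genes fell 5-fold or more and 0 fell 8-fold. Over all genes the median log2 difference was 0.03. It was 0.60 among genes that rose and -0.61 among those that fell. For the genes that rose, the median difference from the EGFP mean was 0.56, 0.61 and 0.62 in PKA-CQR replicates 1, 2 and 3, and for those that fell it was -0.58, -0.65 and -0.59. All PKA-CQR arrays lay above both EGFP arrays for 3193 genes (22.9%) and below both for 2452 (17.6%), so separation alone marks many genes that were not called. Without EGFP replicate 1, 491 genes rose and 360 fell, and 101 fell 2-fold or more. Without EGFP replicate 2, 236 fell 2-fold or more, and without PKA-CQR replicate 2, 540 genes fell. In every fit with 1 array left out, 395 of the up-regulated and 310 of the down-regulated genes stayed called.

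**Figure D1:**
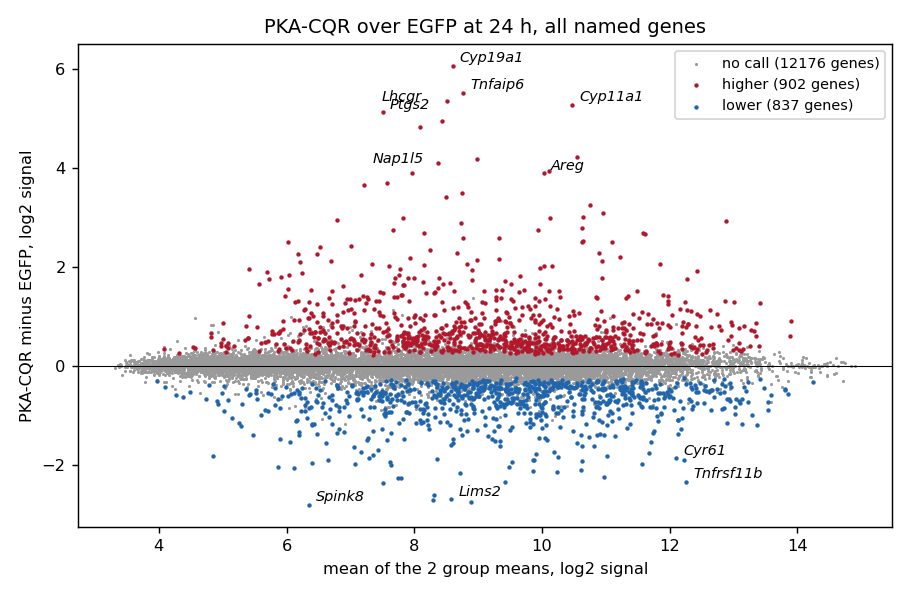
The log2 difference between PKA-CQR and EGFP (vertical axis, log2 signal) is plotted against the mean of both group means (horizontal axis, log2 signal), with 1 point for each of 13915 genes. The 902 genes that rose (red) reach further from 0 than the 837 that fell (blue), and *Cyp19a1* is highest with a difference of 6.07.

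Genes of estrogen and progesterone synthesis were among those that rose most. *Cyp19a1*, the aromatase that makes estradiol from testosterone, had log2 signals of 4.84 and 6.29 in EGFP arrays and 11.71, 11.47 and 11.73 in PKA-CQR arrays. The lowest PKA-CQR array exceeded the higher control by over 5 log2 units, and the controls themselves were far apart. Its mean rose 67.3-fold (log2 difference 6.07, SE 0.43, adjusted p = 8.08e-05), which became 40.6-fold without EGFP replicate 1 and 111.4-fold without EGFP replicate 2. *Cyp11a1*, the side chain cleavage enzyme that makes pregnenolone from cholesterol, was at 7.28 and 8.38 in EGFP arrays and at 12.99, 13.26 and 13.09 in PKA-CQR arrays, a 39-fold rise (SE 0.27, adjusted p = 1.23e-05). *Star*, which carries cholesterol into mitochondria, was at 8.58 and 9.68 against 12.28, 12.80 and 12.07 and rose 9.55-fold (SE 0.35, adjusted p = 0.000594). For each of these genes EGFP replicate 2 was the higher control and no array overlapped.

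The electron donors of these cytochromes rose too. *Fdx1*, the ferredoxin that serves mitochondrial P450 enzymes, was at 11.20 and 11.64 in EGFP arrays and at 14.30, 14.35 and 14.40 in PKA-CQR arrays, a 7.61-fold rise (adjusted p = 4.44e-06). Its reductase *Fdxr* rose 2.92-fold (adjusted p = 0.000141), and *Por*, the reductase of microsomal P450 enzymes including aromatase, rose 1.96-fold (adjusted p = 0.000968). *Hsd17b1*, which reduces estrone to estradiol, rose 3.47-fold (SE 0.30, adjusted p = 0.00503). *Cyp17a1*, the androgen-forming enzyme of theca cells, stayed dim, at 5.20 and 5.07 in EGFP and 6.16, 5.95 and 5.67 in PKA-CQR arrays. Its difference was 0.79 (adjusted p = 0.0112), which did not hold without the first EGFP array (adjusted p = 0.0554) or without the second (adjusted p = 0.0716). In all, 15 of 26 measured genes of steroid synthesis rose and 0 fell (4 had a lower signal at an unadjusted p under 0.05, 3 by the unmoderated test of the methods), with a median difference of 0.43 against 0.03 over all genes. The mitochondrial import proteins *Tspo* and *Vdac1* were not called, with differences of 0.09 and 0.02.

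**Figure D2:**
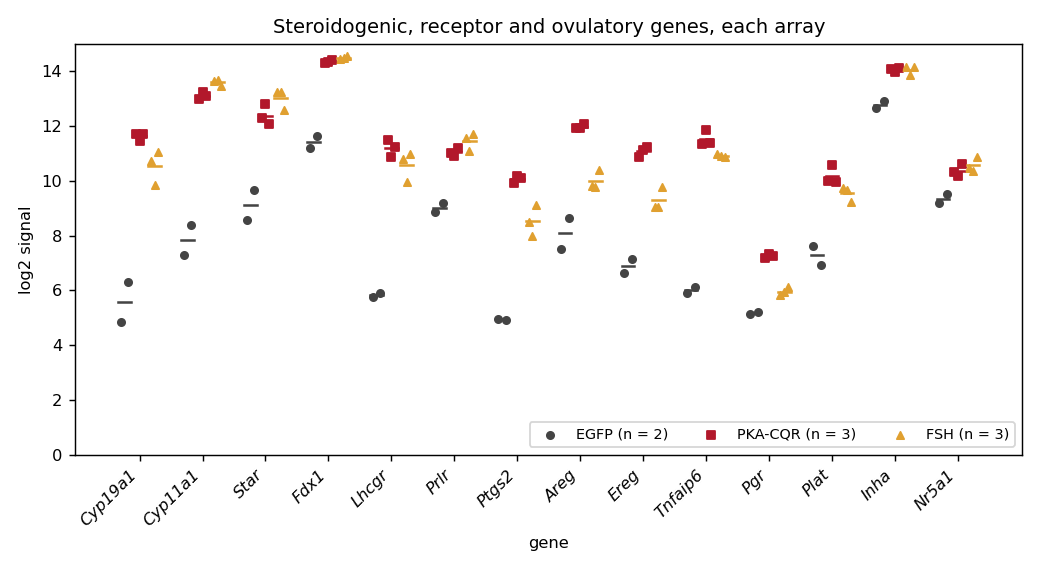
Log2 signals (vertical axis) of 14 steroidogenic, receptor and ovulatory genes (horizontal axis) in each array, with EGFP in black (n = 2), PKA-CQR in red (n = 3) and FSH in yellow (n = 3), and with bars at the group means. The PKA-CQR arrays lie above the EGFP arrays for each gene, and for *Ptgs2*, *Areg*, *Ereg* and *Pgr* they also lie above the FSH arrays.

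Most genes of lipid synthesis rose. Of 33 measured genes of sterol and fatty acid synthesis, 22 rose and 1 fell (median difference 0.54). *Scd1*, the desaturase that makes monounsaturated fatty acids, was at 8.16 and 7.91 in EGFP arrays and at 10.56, 10.79 and 10.49 in PKA-CQR arrays, a 6-fold rise (log2 difference 2.58, SE 0.11, adjusted p = 6.48e-06). *Idi1* and *Hsd17b7*, of the mevalonate and post-squalene steps, rose 2.45-fold and 2.59-fold. *Srebf1*, a transcription factor of lipid synthesis, rose 1.80-fold (adjusted p = 0.00208). *Acss2*, which makes acetyl-CoA from acetate, was the member that fell (log2 difference -0.59, adjusted p = 0.0105), a call lost without EGFP replicate 2 (adjusted p = 0.076). In cholesterol uptake and handling, 6 of 27 rose and 2 fell, and 1 fell without EGFP replicate 1, PKA-CQR replicate 1 or PKA-CQR replicate 2. The largest difference on this list was 4.24 on the log2 scale. *Scarb1*, the HDL receptor, rose, a call kept in the unmoderated test of the methods after adjustment. *Stard4*, a cytosolic cholesterol carrier, rose 2.00-fold (adjusted p = 0.00036) and *Nr1h3*, the oxysterol receptor LXR alpha, 1.97-fold (adjusted p = 0.00408). *Cav1*, the caveolin of cholesterol-rich membrane pits, fell from 12.61 and 12.22 to 11.27, 10.86 and 11.04 (log2 difference -1.35, adjusted p = 0.000662).

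Receptors of later follicle life were among the strongest responses. *Lhcgr*, the LH receptor, was at 5.75 and 5.92 in EGFP arrays and at 11.50, 10.86 and 11.24 in PKA-CQR arrays, a 41.2-fold rise (log2 difference 5.36, SE 0.29, adjusted p = 1.63e-05). *Prlr*, the prolactin receptor, was at 8.86 and 9.17 against 11.03, 10.92 and 11.20 and rose 4.10-fold (adjusted p = 0.000278). The progesterone receptor gene *Pgr*, needed for follicle rupture, was at 5.13 and 5.19 against 7.19, 7.32 and 7.27, a 4.29-fold rise (SE 0.09, adjusted p = 6.81e-06). Its arrays differed by little within either group. The EGFP means of *Cyp19a1*, *Ptgs2* and *Pgr* lay at percentiles 17.9, 10.1 and 12.6 of all genes, and the files hold no detection calls, so whether the controls were above background is not known and the folds depend on dim signals. *Egfr*, through which EGF-like ligands act, rose 2.04-fold (adjusted p = 0.00276), while *Ghr*, the growth hormone receptor, and *Nr3c1*, the glucocorticoid receptor, fell by 1.02 and 0.41 on the log2 scale (adjusted p = 0.00616 and 0.00466). Of 27 measured hormone and growth factor receptors 6 rose and 2 fell.

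Ovulatory genes formed a further group, with 14 of 33 measured members up-regulated and 2 down-regulated (1 without EGFP replicate 1; median 0.28). *Tnfaip6*, which stabilizes the hyaluronan matrix around the oocyte, was at 5.89 and 6.11 in EGFP arrays and at 11.34, 11.87 and 11.38 in PKA-CQR arrays, a 46.1-fold rise (SE 0.16, adjusted p = 6.63e-07). *Ptgs2*, the inducible cyclooxygenase, was at 4.97 and 4.91 against 9.92, 10.17 and 10.12 and rose 35.1-fold (SE 0.27, adjusted p = 1.45e-05). *Areg*, an EGF-like ligand, was at 7.51 and 8.65 against 11.94, 11.93 and 12.06, a 14.9-fold rise (SE 0.30, adjusted p = 0.000137). In each of them the PKA-CQR arrays stood together and clear of the controls. *Plat*, the tissue plasminogen activator, rose 7.43-fold (adjusted p = 0.00026), *Pla2g4a*, which releases arachidonic acid for cyclooxygenase, 3.14-fold (adjusted p = 0.00105) and *Vcan*, a proteoglycan of the expanded matrix, 2.24-fold (adjusted p = 0.0014). Other classical genes of ovulation were not called at 24 hr. *Adamts1*, a protease that cleaves versican, had a difference of 0.14 (adjusted p = 0.376), *Has2*, the hyaluronan synthase, 0.33 (adjusted p = 0.0938) and *Egr1* 0.27 (adjusted p = 0.114). *Ptges*, the prostaglandin E synthase, had a difference of 0.05, whereas *Ptgds*, a prostaglandin D synthase, rose 12.6-fold (SE 0.12, adjusted p = 1.29e-06). The prostaglandin E receptors *Ptger2* and *Ptger3* fell 2.83-fold and 2.18-fold (adjusted p = 0.00306 and 0.00351).

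Since PKA acts on transcription through CREB, promoters were read for the cAMP response element (CRE), TGACGTCA, and its shorter core, TGACG, on both strands. Each full element contains the core on both strands. The window was 250 bases before to 50 after the start in RefSeq (build GRCr8), and 11103 of 13915 genes matched a promoter by symbol or gene ID. The full element was present in 2.88% of these promoters and the core in 29.6%. Among all genes that rose, 29 of 728 promoters held the full element (3.98%) and 32.1% the core, and among all that fell, 11 of 658 (1.67%) and 24.3%. Of promoters of genes that rose 5-fold or more, 2 of 32 held the full element (6.25%). Among promoters of genes up-regulated 2-fold or more, 3 of 163 held the full element (1.84%) and 28.2% the core, and among those down-regulated 2-fold or more 2 of 110 (1.82%) and 20% held them. The up-regulated genes with the full element were *Areg*, *Giot1* and *Plk2*, a polo-like kinase gene that rose 2.33-fold (adjusted p = 0.000152). Of 51 genes of the study text and of the largest changes, 41 had a promoter and 3 of these held the full element, *Areg*, *Giot1* and *Lmcd1*. *Giot1*, a gonadotropin-inducible zinc finger gene, rose 6.04-fold (adjusted p = 0.000137), while *Lmcd1*, a LIM domain gene, fell by 2.11 on the log2 scale (adjusted p = 0.000567). These promoters are shown because the same letters stand before genes that moved in opposite directions. *Inha* is shown for its core. Capitals mark the CRE or the core, which begins at base -91 in *Areg*, -248 in *Giot1*, -192 in *Lmcd1* and -117 in *Inha*, counted from the start.
Areg (chr14:17265592-17265891, minus strand): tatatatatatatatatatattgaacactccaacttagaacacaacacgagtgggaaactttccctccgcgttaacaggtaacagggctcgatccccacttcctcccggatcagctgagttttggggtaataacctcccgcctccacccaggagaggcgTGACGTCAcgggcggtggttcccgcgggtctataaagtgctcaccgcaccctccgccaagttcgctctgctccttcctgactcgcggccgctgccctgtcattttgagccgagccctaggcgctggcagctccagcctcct
Giot1 (chr7:10886916-10887215, minus strand): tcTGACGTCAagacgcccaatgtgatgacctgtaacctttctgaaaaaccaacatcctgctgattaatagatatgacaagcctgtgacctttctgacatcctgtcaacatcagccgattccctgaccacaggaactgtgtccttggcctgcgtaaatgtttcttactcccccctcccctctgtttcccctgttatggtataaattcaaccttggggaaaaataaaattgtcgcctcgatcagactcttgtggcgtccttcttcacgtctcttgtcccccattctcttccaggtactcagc
Lmcd1 (chr4:146948743-146949042, plus strand): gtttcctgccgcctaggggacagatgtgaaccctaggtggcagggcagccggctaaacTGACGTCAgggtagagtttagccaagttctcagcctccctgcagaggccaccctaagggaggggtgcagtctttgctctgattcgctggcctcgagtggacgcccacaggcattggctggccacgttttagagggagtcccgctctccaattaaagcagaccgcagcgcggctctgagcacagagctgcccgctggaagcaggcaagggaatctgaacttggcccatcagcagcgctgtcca
Inha (chr9:84442859-84443158, plus strand): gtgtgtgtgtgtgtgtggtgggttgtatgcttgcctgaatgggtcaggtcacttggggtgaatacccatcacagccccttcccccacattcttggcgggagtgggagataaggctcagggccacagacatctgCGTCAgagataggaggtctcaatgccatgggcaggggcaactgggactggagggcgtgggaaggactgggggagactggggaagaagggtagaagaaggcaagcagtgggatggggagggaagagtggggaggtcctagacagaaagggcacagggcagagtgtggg
A match is a description of the letters and not a binding site.

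Early genes that respond to cAMP were still altered at 24 hr., with 10 of 38 up-regulated and 5 down-regulated (median 0.12). *Crem*, whose short ICER form represses CREB targets, was at 9.02 and 8.94 in EGFP arrays and at 10.97, 11.04 and 10.89 in PKA-CQR arrays, a 3.96-fold rise (SE 0.08, adjusted p = 3.6e-06). The nuclear receptor gene *Nr4a1* rose 3.88-fold (adjusted p = 2.4e-05), *Sik1*, a kinase that restrains the CREB coactivators, 2.65-fold (adjusted p = 0.000861) and the clock gene *Per1* 1.88-fold (adjusted p = 0.000341). *Fos*, *Junb* and *Nr4a2* were not called, with differences of 0.30, 0.22 and -0.02. *Creb1* itself, its coactivator *Crtc2* and the acetyltransferase *Crebbp* had differences of -0.02, 0.02 and -0.01 and were not called. *Klf6*, a zinc finger factor, fell 2.40-fold (adjusted p = 0.00114). *Bdnf*, a neurotrophin, fell 3.72-fold (adjusted p = 0.00574), a call not kept without EGFP replicate 1. Its log2 difference was -1.49 without EGFP replicate 1 and -2.30 without EGFP replicate 2. The number of these early genes that fell was 1 without EGFP replicate 1 and 3 without PKA-CQR replicate 1.

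In the PKA system itself, 3 phosphodiesterase genes rose and 2 inhibitor genes fell. *Pde4b*, which degrades cAMP, was at 5.40 and 5.94 in EGFP arrays and at 10.35, 10.65 and 10.55 in PKA-CQR arrays, a 28.8-fold rise (SE 0.17, adjusted p = 1.53e-06). *Pde4d* rose 2.43-fold (adjusted p = 0.00143), and *Pde10a* 1.44-fold (adjusted p = 0.0111), the latter not without EGFP replicate 2 (adjusted p = 0.0794). The other 11 of 14 measured phosphodiesterases were not called and ranged from -0.14 to 0.38. *Pkia*, a protein inhibitor that binds free catalytic subunits, was at 10.83 and 10.47 against 9.53, 9.48 and 9.40 and fell 2.26-fold (SE 0.11, adjusted p = 0.000278). A further inhibitor gene, *Pkig*, fell 1.59-fold (adjusted p = 0.00345), while *Pkib* stayed dim with a difference of 0.83 (adjusted p = 0.102). Of the regulatory subunits, *Prkar2b* rose 1.52-fold (adjusted p = 0.00546), a call not kept without EGFP replicate 1. *Prkar1b* fell by 0.52 on the log2 scale (adjusted p = 0.0179), a call lost without EGFP replicate 1, PKA-CQR replicate 2 or PKA-CQR replicate 3 (adjusted p = 0.115, 0.0636 and 0.0595). Of all 12 measured subunits and inhibitors 1 rose and 3 fell, and 0 rose without EGFP replicate 1 and 2 without PKA-CQR replicate 1. *Prkar1a*, *Prkar2a* and the catalytic *Prkacb* were not called, with differences of 0.04, -0.04 and 0.41.

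Of 21 measured A-kinase anchoring proteins 0 rose and 6 fell, with a median of -0.06. A higher signal at an unadjusted p under 0.05 was seen for 1 of them by limma and for 1 by the unmoderated test of the methods. *Akap12*, which anchors PKA at the plasma membrane, was at 11.24 and 10.33 in EGFP arrays and at 9.12, 8.97 and 8.97 in PKA-CQR arrays, a 3.40-fold fall (SE 0.25, adjusted p = 0.00234). *Akap13*, an anchoring protein that is also a guanine nucleotide exchange factor, fell 1.53-fold (adjusted p = 0.00295). *Akap5* fell 3.45-fold (adjusted p = 0.0117), with a log2 difference of -1.55 without EGFP replicate 1 and -2.02 without EGFP replicate 2. Its call was not kept without EGFP replicate 1, and fewer of the family were called in that fit. Among other genes of G protein and cAMP signaling, the regulators of G protein signaling *Rgs2* and *Rgs1* rose 3.78-fold (adjusted p = 4.58e-05) and 3.39-fold (adjusted p = 0.000244). The cyclase gene *Adcy2* and *Rapgef4*, the cAMP sensor Epac2, fell by 0.53 and 0.52 on the log2 scale (adjusted p = 0.0164 and 0.0129). Neither call was kept without EGFP replicate 1 (adjusted p = 0.137 and 0.115).

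**Figure D3:**
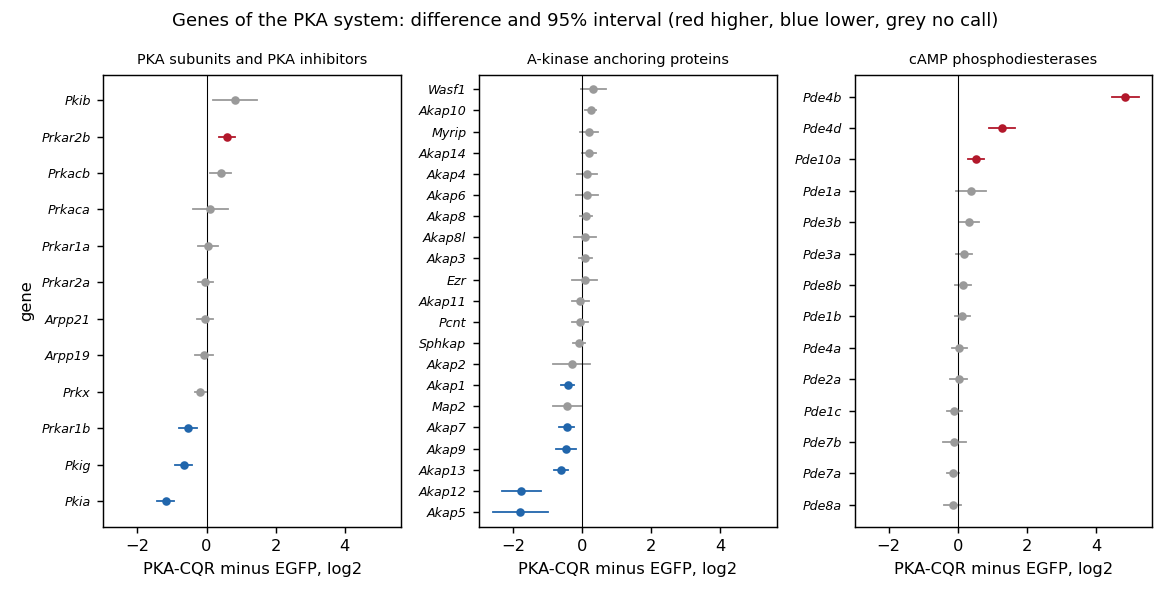
Log2 differences between PKA-CQR and EGFP (horizontal axes) with 95% intervals for each measured PKA subunit and inhibitor, A-kinase anchoring protein and cAMP phosphodiesterase. *Pde4b* stands alone at 4.85, and *Akap5* and *Akap12* are lowest at -1.79 and -1.77.

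Transcription factors of GC differentiation moved in both directions, 6 of 35 up and 4 down. *Gata4* rose 2.23-fold (adjusted p = 0.00329) and *Runx1*, which is induced before ovulation, 2.69-fold (adjusted p = 0.000245). *Cebpb*, required for luteinization in mice, rose 1.77-fold (adjusted p = 0.000222) while its relative *Cebpd* fell 2.46-fold (adjusted p = 0.00141). *Nr5a1*, steroidogenic factor 1, rose 2.05-fold (adjusted p = 0.00819), a call not kept without EGFP replicate 1. *Foxo1*, a repressor of GC differentiation genes, was at 12.85 and 12.89 against 12.44, 12.27 and 12.40 and fell 1.41-fold (adjusted p = 0.019). That call was lost without EGFP replicate 1, EGFP replicate 2 or PKA-CQR replicate 2 (adjusted p = 0.0907, 0.0949 and 0.0687). *Nr5a2*, *Nr0b2* and *Nr0b1* had differences of 0.92, 0.80 and -0.91 that missed the threshold (adjusted p = 0.0888, 0.0733 and 0.0532). Without EGFP replicate 1 the number of these factors that fell was 2.

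The inhibin and activin subunits rose together. *Inha*, the inhibin alpha subunit, was at 12.65 and 12.92 in EGFP arrays and at 14.07, 13.97 and 14.12 in PKA-CQR arrays, a 2.41-fold rise (SE 0.12, adjusted p = 0.000311). *Inhbb* rose 3.38-fold (adjusted p = 0.000663) and *Inhba* 2.49-fold (adjusted p = 0.00118). *Id4* and *Id1*, inhibitors of helix-loop-helix factors, rose 3.21-fold and 2.04-fold (adjusted p = 0.000401 and 0.000465). *Bmp4* fell 3.31-fold (adjusted p = 0.00562) and *Tgfb2* 2.71-fold (adjusted p = 0.00123). Of 44 measured members of the family 8 rose and 5 fell, and 3 fell without EGFP replicate 1 or without any of the PKA-CQR arrays.

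Genes of DNA replication rose in number, most of them by less than 2-fold. Of 42 measured, 27 rose and 0 fell (0 also at an unadjusted p under 0.05, by limma and by the unmoderated test of the methods), and the median difference was 0.46. *Gmnn*, geminin, which prevents replication origins from being licensed again, was at 8.24 and 8.25 in EGFP arrays and at 10.25, 10.58 and 10.42 in PKA-CQR arrays, a 4.50-fold rise (SE 0.11, adjusted p = 1.48e-05). *Cdt1*, the licensing factor that geminin binds, rose 2.19-fold (adjusted p = 0.00534), a call not kept without EGFP replicate 1. Its log2 difference was 1.07 without EGFP replicate 1 and 1.19 without EGFP replicate 2. *Rrm2*, a subunit of ribonucleotide reductase, rose 2.17-fold (adjusted p = 0.00011) and the helicase subunit gene *Mcm6* 1.76-fold (adjusted p = 0.00178). In the group all PKA-CQR arrays lay above both EGFP arrays for 35 of 42 genes, against 22.9% over all genes. The count of 27 depended on every array, since it was 7 without EGFP replicate 1 and 15 without EGFP replicate 2. It was 15 without PKA-CQR replicate 1, 15 without replicate 2 and 12 without replicate 3.

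Among mitotic genes 18 of 44 were up and 0 down, also at an unadjusted p under 0.05 (median 0.36). The count was 10 without EGFP replicate 1 and 8 without EGFP replicate 2. *Kif20a*, a kinesin of cytokinesis, rose 2.62-fold (adjusted p = 0.00141) and the mitotic kinase gene *Aurka* 1.71-fold (adjusted p = 0.000817). *Mki67*, a general marker of cycling cells, and *Cdk1*, the mitotic cyclin-dependent kinase, were not called, with differences of 0.40 (adjusted p = 0.24) and 0.11 (adjusted p = 0.542). *Ccnd2*, the cyclin D of GCs, was at 11.48 and 12.09 against 12.80, 12.78 and 13.10 and rose 2.16-fold (adjusted p = 0.0185). It was not called without EGFP replicate 1 or PKA-CQR replicate 3 (adjusted p = 0.155 and 0.0624).

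Genes of the actin cytoskeleton fell in number. Of 38 measured actin genes and targets of SRF, a transcription factor that reads the state of actin, 0 rose (0 also at an unadjusted p under 0.05, by limma and by the unmoderated test of the methods) and 25 fell, with a median of -0.82. *Tagln*, an actin cross-linking protein, was at 13.61 and 12.74 in EGFP arrays and at 11.29, 11.07 and 11.47 in PKA-CQR arrays, a 3.72-fold fall (SE 0.23, adjusted p = 0.00109). *Acta2*, smooth muscle alpha-actin, was at 10.43 and 9.84 against 8.99, 8.66 and 8.91 and fell 2.43-fold (adjusted p = 0.00309). EGFP replicate 1 was the higher control in both. *Stard13*, a GTPase-activating protein, fell 6.11-fold (adjusted p = 2.65e-05), *Tpm1*, a tropomyosin, 2.65-fold (adjusted p = 0.00101) and *Srf* itself 1.76-fold (adjusted p = 0.00042). *Nexn*, a filament-binding protein outside the list, fell 4.78-fold (adjusted p = 2.18e-05). Beta-actin, *Actb*, was not called, with a difference of -0.15 (adjusted p = 0.398). Without EGFP replicate 1, 13 of the 38 fell.

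Beside these genes stand the smooth muscle and pericyte markers given above, whose sum was highest in EGFP replicate 1. *Tagln*, *Acta2*, *Cnn1* and *Lmod1* are on both lists, and *Cnn1* was not called without EGFP replicate 1 (adjusted p = 0.0781). Of the markers not shared, *Mcam*, an adhesion molecule of pericytes, fell by 0.96 on the log2 scale (adjusted p = 0.00817). *Des*, the desmin of muscle filaments, had a difference of 0.01 (adjusted p = 0.976) and stayed between 6.43 and 6.61. *Myh11*, the smooth muscle myosin, was at 7.90 and 7.08 in EGFP and 7.08, 7.10 and 7.11 in PKA-CQR arrays (adjusted p = 0.268), and *Pdgfrb* had a difference of 0.01. Of 16 theca and stroma markers 1 rose (0 without either EGFP array) and 3 fell, with summed linear signals of 21860 and 17915 in EGFP and 13774 to 15862 in PKA-CQR arrays. The part of these cells in the falls was not tested.

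The CArG box, the 10-base element that SRF reads, was found on either strand in 1.31% of the promoters of tested genes. It was present in 14 of 658 promoters of all genes that fell (2.13%) and in 8 of 728 of all that rose (1.1%). At 2-fold or more it was in 4 of 110 promoters of down-regulated genes (3.64%) and in 1 of 163 of up-regulated genes (0.613%). Those 4 genes were *Acta1*, *Fhl2*, *Klf6* and *Ldb3*, named after their values were seen. Of actin list genes that fell, *Acta2*, *Cnn1*, *Tpm1* and *Stard13* had 0 matches and *Srf* had 2. *Acta1*, skeletal alpha-actin, was at 7.62 and 6.14 in EGFP arrays and at 5.02, 4.63 and 4.90 in PKA-CQR arrays, a 4.08-fold fall (adjusted p = 0.00635) that became 2.44-fold without EGFP replicate 1 and 6.81-fold without EGFP replicate 2. *Fhl2*, a LIM protein that binds actin regulators, was at 11.57 and 11.29 against 10.15, 10.37 and 10.53 and fell 2.12-fold (adjusted p = 0.00605, and 0.0621 without EGFP replicate 1). Both promoters are shown, with the CArG box in capitals, because its position from the start is nearly the same, -94 in *Acta1* and -95 in *Fhl2*.
Acta1 (chr19:68784145-68784444, minus strand): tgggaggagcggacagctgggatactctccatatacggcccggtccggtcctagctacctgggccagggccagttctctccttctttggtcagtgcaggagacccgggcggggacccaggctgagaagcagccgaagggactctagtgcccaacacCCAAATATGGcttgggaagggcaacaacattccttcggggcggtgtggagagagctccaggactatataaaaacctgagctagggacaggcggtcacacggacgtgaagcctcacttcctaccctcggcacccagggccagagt
Fhl2 (chr9:52954491-52954790, minus strand): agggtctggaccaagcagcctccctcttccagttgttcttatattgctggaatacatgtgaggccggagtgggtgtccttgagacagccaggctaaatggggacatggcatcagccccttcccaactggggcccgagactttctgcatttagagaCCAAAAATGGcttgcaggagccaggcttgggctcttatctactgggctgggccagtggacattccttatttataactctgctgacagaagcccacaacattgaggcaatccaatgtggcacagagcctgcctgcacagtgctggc

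Genes of the Hippo pathway and its targets fell where they were called. YAP binds TEAD factors in the nucleus to drive these targets. Of 24 measured, 0 rose and 8 fell (median -0.28), and 1 had a higher signal at an unadjusted p under 0.05 (0 by the unmoderated test of the methods). *Cyr61*, a secreted matrix protein, was at 13.20 and 12.87 in EGFP arrays and at 11.23, 10.89 and 11.41 in PKA-CQR arrays, a 3.63-fold fall (SE 0.21, adjusted p = 0.000812). *Ankrd1*, a nuclear ankyrin repeat protein, fell 3.70-fold (adjusted p = 0.00234) and *F3*, tissue factor, 3.33-fold (adjusted p = 0.0034). *Tead3* fell 1.75-fold (adjusted p = 0.0011). *Ctgf*, a close relative of *Cyr61*, was at 14.84 and 14.88 against 14.50, 14.56 and 14.65 and was not called (difference -0.29, adjusted p = 0.209).

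**Figure D4:**
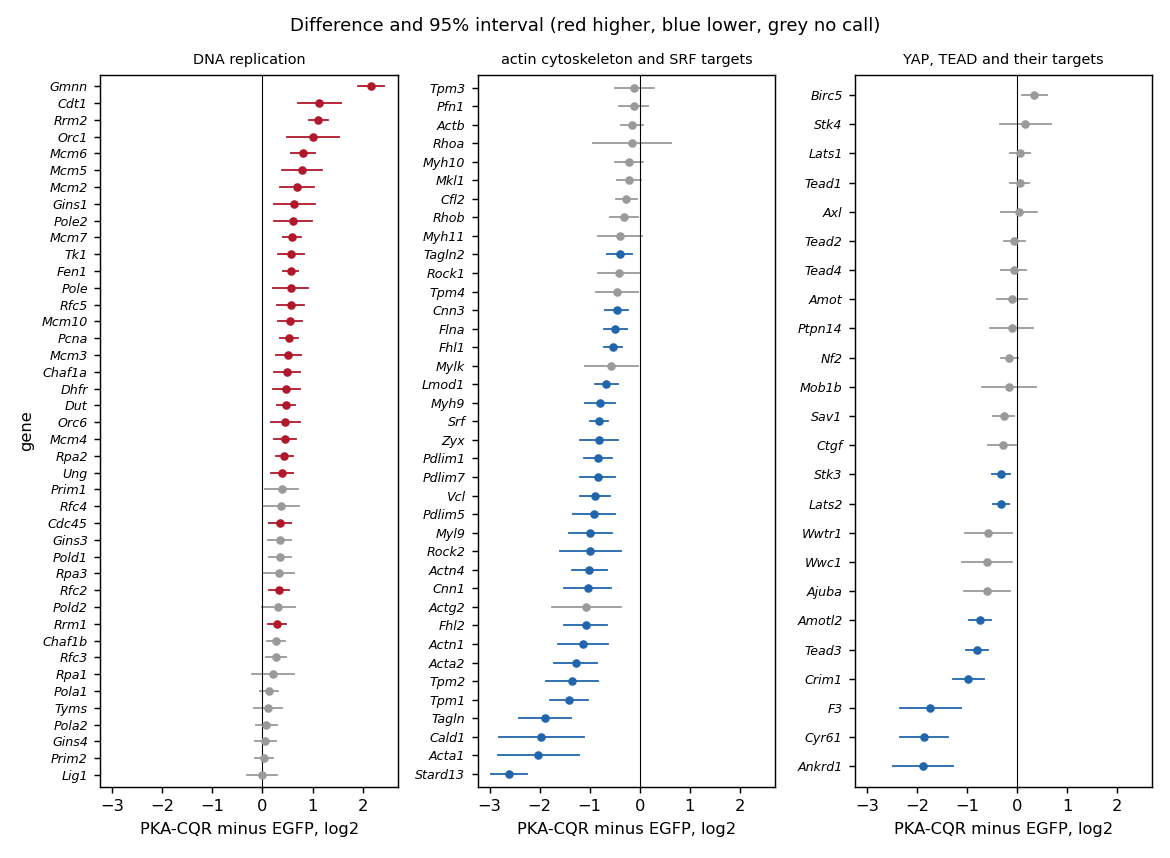
Log2 differences between PKA-CQR and EGFP (horizontal axes) with 95% intervals for each measured gene of DNA replication, of the actin cytoskeleton and of the YAP and TEAD list. Replication genes lie between -0.01 and 2.17 and actin genes left of 0, and *Gmnn* at 2.17 and *Stard13* at -2.61 are the ends of their lists.

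Some receptors for lipid mediators also fell. Of 19 measured genes of sphingosine phosphate and lysophosphatidic acid signaling 1 rose and 7 fell, which became 2 and 4 without EGFP replicate 1. *S1pr1*, a sphingosine phosphate receptor, was at 10.45 and 10.08 in EGFP arrays and at 7.45, 7.47 and 7.65 in PKA-CQR arrays, a 6.70-fold fall (SE 0.14, adjusted p = 1.25e-05). *Lpar1* and *Lpar4*, receptors for lysophosphatidic acid, fell 2.78-fold (adjusted p = 0.0012) and 2.61-fold (adjusted p = 0.000273). *Sphk1*, the kinase that makes sphingosine phosphate, rose 1.76-fold (adjusted p = 0.000684). In angiotensin and endothelin signaling, *Agtr1a* and *Agtr2*, the angiotensin II receptors, fell 4.43-fold and 4.27-fold (adjusted p = 0.000553 and 0.00434). *Edn1*, endothelin, fell 4.81-fold (adjusted p = 0.000253), and its receptor gene *Ednrb* rose 2.02-fold (adjusted p = 0.00155). *Agtr2* was one of the most variable genes over PKA-CQR arrays, at 10.21, 9.34 and 9.12.

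Other large falls concerned adhesion, matrix and secreted proteins. *Car3*, a carbonic anhydrase, was at 9.90 and 9.39 in EGFP arrays and at 7.14, 6.61 and 7.07 in PKA-CQR arrays, a 6.53-fold fall (adjusted p = 0.000106). *Lims2*, a protein of focal adhesions, fell 6.45-fold (adjusted p = 0.000176), *Meox2*, a homeobox factor, 5.14-fold (adjusted p = 6.94e-06) and *Cdh11*, a mesenchymal cadherin, 4.41-fold (adjusted p = 0.000413). *Tnfrsf11b*, osteoprotegerin, a secreted decoy receptor for the cytokine RANKL, fell from 13.75 and 13.10 to 11.54, 10.79 and 10.93 (5.07-fold, adjusted p = 0.000552). *P4ha3*, a collagen prolyl hydroxylase subunit, fell 5.08-fold (adjusted p = 0.00229). Of 56 measured genes of the extracellular matrix 7 rose and 9 fell, and 4 fell without EGFP replicate 1. *Nid1*, a basement membrane protein, fell 2.33-fold (adjusted p = 0.000573) and *Col3a1* 2.09-fold (adjusted p = 0.00313), while *Lama4*, a laminin chain, rose 2.05-fold (adjusted p = 0.00252).

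Some large rises lay outside the pathways above. With any 1 EGFP or PKA-CQR array left out, *Fam110c* had a log2 difference between 4.78 and 5.20. *Nap1l5*, of the nucleosome assembly protein family, was at 6.22 and 6.41 in EGFP arrays and at 10.19, 10.69 and 10.38 in PKA-CQR arrays, a 17.2-fold rise (SE 0.14, adjusted p = 1.41e-06). *Sult1b1*, a cytosolic sulfotransferase, was at 5.33 and 6.13 against 9.72, 9.14 and 9.43 and rose 13.0-fold (adjusted p = 0.000141). *Ddit4*, an inhibitor of mTORC1, rose 8.55-fold (adjusted p = 5.98e-05), and *Gjb2*, a connexin of gap junctions, 6.78-fold (adjusted p = 0.000137), whereas *Gja1*, the main connexin of GCs, had a difference of 0.08. *Npas2*, a clock factor related to CLOCK, rose 5.33-fold (adjusted p = 0.0003). *Hey2*, a target of Notch, rose 4.12-fold (adjusted p = 4.58e-05) and *Cxcr4*, a chemokine receptor, 5.43-fold (adjusted p = 0.00112). The chemokine gene *Cxcl13* rose 3.61-fold (adjusted p = 0.000861), and in the chemokine and class II list 8 of 36 rose and 0 fell, also at an unadjusted p under 0.05. *Gja5* varied most over the PKA-CQR arrays, at 10.12, 10.53 and 9.13, with EGFP arrays at 6.11 and 5.91.

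Genes of antioxidant defence rose in part, 9 of 46 with 0 down (median 0.19), while 4 had a lower signal at an unadjusted p under 0.05 (2 by the unmoderated test of the methods). *Slc7a11*, the cystine transporter that feeds glutathione synthesis, was at 7.61 and 8.11 in EGFP arrays and at 8.95, 9.73 and 9.47 in PKA-CQR arrays, a 2.87-fold rise (SE 0.24, adjusted p = 0.004). *Srxn1*, sulfiredoxin, rose 2.84-fold (adjusted p = 0.00018), and *Sod2*, the mitochondrial superoxide dismutase, 2.08-fold (adjusted p = 0.000303). Oxidative phosphorylation gave 0 calls among 44 measured genes by limma, with a median of 0.10 and a range of -0.22 to 0.33, and 4 were higher and 1 lower at an unadjusted p under 0.05. The unmoderated test of the methods placed 9 higher and 1 lower at that level, and 1 after adjustment. In glucose use, *Slc2a1*, the glucose transporter GLUT1, rose 1.44-fold (adjusted p = 0.0046) and *Slc16a1*, a lactate transporter, 1.62-fold (adjusted p = 0.00215). *Pdk4* was at 11.36 and 11.30 in EGFP arrays and at 9.94, 9.78 and 9.61 in PKA-CQR arrays, a 2.94-fold fall (adjusted p = 0.000682). *Irs2*, an adaptor of insulin signaling, fell 1.93-fold (adjusted p = 0.00303).

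Lists nearer to the background, where 6.48% of all genes rose and 6.02% fell, are given by their counts. Of 45 measured genes of the interferon response 7 rose and 2 fell, and 1 fell without either EGFP array or without PKA-CQR replicate 1 or 2. *Oasl*, an antiviral protein, rose 2.23-fold (adjusted p = 0.000746) and *Ifitm1*, a membrane protein that blocks virus entry, fell 2.15-fold (adjusted p = 0.00295). Of 36 members of the BCL2 and caspase list 0 rose (0 also at an unadjusted p under 0.05, by limma and by the unmoderated test of the methods) and 3 fell, and 1 fell without PKA-CQR replicate 2. Of 60 potassium and calcium channel genes 2 rose and 6 fell, the latter 1 to 3 without EGFP replicate 1, EGFP replicate 2, PKA-CQR replicate 1 or PKA-CQR replicate 2. *Kcnq1*, a voltage-gated potassium channel, rose 4.58-fold (adjusted p = 0.000381).

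**Figure D5:**
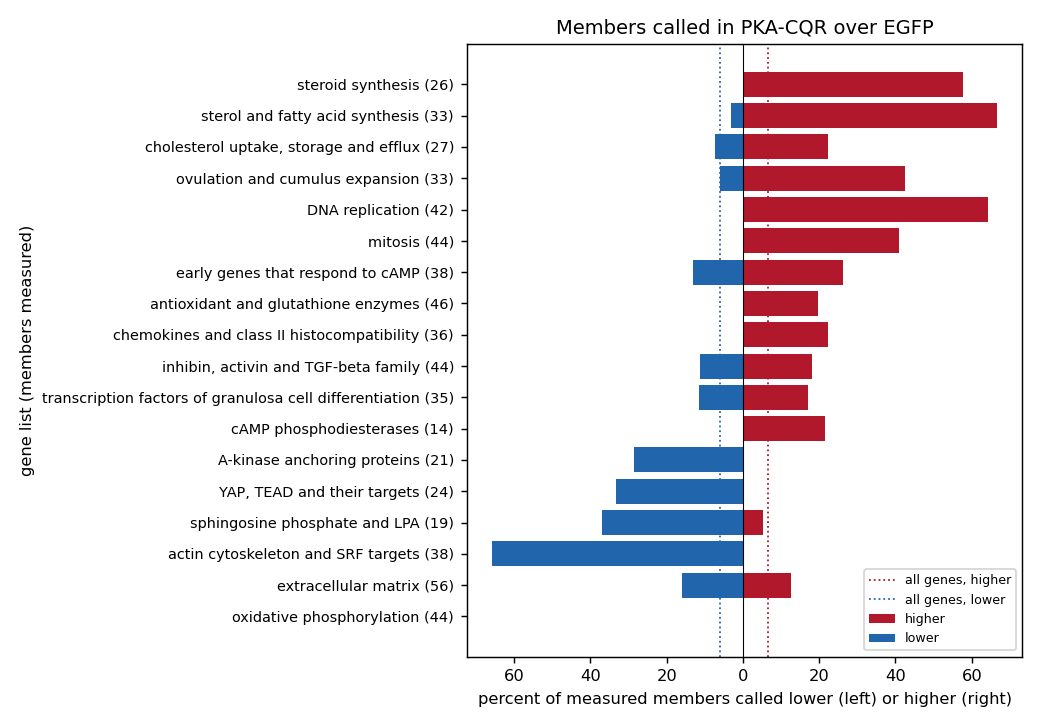
Percent of measured members of 18 gene lists that rose (red, to the right) or fell (blue, to the left) in PKA-CQR over EGFP, with dotted lines at the shares over all genes. Sterol synthesis, DNA replication and steroid synthesis reach furthest right, and the actin list reaches furthest left.

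A direct test of PKA-CQR against FSH, whose arrays share the EGFP controls above, found 550 genes higher with PKA-CQR (3.95%) and 412 lower (2.96%). These counts fell to 296 and 163 without PKA-CQR replicate 1, to 331 and 211 without PKA-CQR replicate 3 and to 340 and 195 without FSH replicate 2, and 223 were lower without PKA-CQR replicate 2. *Rgs1* had a difference over EGFP of 1.76 with PKA-CQR and 0.42 with FSH, and was 1.34 higher with PKA-CQR than with FSH on the log2 scale (adjusted p = 0.00105). *Nap1l5* was 1.04 higher with PKA-CQR than with FSH (adjusted p = 0.00192) and *Slc7a11* 1.09 higher (adjusted p = 0.0192). *Scd1* rose by 4.19 with FSH and 2.58 with PKA-CQR, a difference between the stimuli of -1.61 (adjusted p = 0.000135). *Fdxr* was likewise lower with PKA-CQR, by 1.19 (adjusted p = 0.000598). Some falls were smaller than with FSH. *Tnfrsf11b* fell 64-fold under the hormone and 5.07-fold under the mutant subunit, and the test between the stimuli gave an adjusted p of 9.4e-05. *Adamts5*, a matrix protease, fell 18.2-fold and 2.29-fold in turn (adjusted p between the stimuli 3.2e-05). *Cyp19a1*, at 6.07 with PKA-CQR and 4.98 with FSH, did not differ by the test between the stimuli (difference 1.10, adjusted p = 0.162).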

How the data were processed

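A single Affymetrix whole-genome rat expression array was run per culture. The authors deposited log2 signals made by robust multi-array average (RMA), in which background is corrected, arrays are quantile normalized and probes are summarized; the methods of the study name MAS5.0, and the RMA version is not given in the sources used here. Quantile normalization places all arrays on 1 distribution, so values are relative to the other genes. Of 31099 probe sets, 56 controls were left out, 13915 carried a gene name in the annotation used here and were tested, and 17128 did not. A second probe set for the same gene could not be read.

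A linear model with 1 mean per group was fitted to all 8 arrays with limma 3.58.1 (R 4.3.3; lmFit, eBayes), with Benjamini-Hochberg adjustment over 13915 genes and a threshold of 0.05. Tables and figures were made in Python 3.11.15, pandas 2.3.3 and matplotlib 3.10.9. The script was tested on simulated data. The number of arrays, 2 against 3, limits the precision.

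The comparison and the 45 gene lists and 8 marker lists were chosen with earlier results of these data known. Genes named were those of the study text, the 15 largest rises and the 15 largest falls among called genes whose arrays did not overlap, up to 3 called members per list and direction, uncalled members where a pathway step is described, *Prkaca*, and the 5 called genes with the largest spread over PKA-CQR arrays. A further 39 genes were named after their values were seen, among them *Fdx1*, *Fdxr*, *Rrm2*, *Mcm6*, *Id1*, *Srf*, *Tpm1*, *Sod2*, *Mcam*, *Plk2*, *Ldb3* and *Fhl2*, and so were the promoters of *Acta1* and *Fhl2*. Probe sets with several symbols were not named, and not every gene so selected is described. Alternatives included other scalings, filters, variance models, replicate blocks and leaving out each array.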

Additional observations from a re-analysis of the deposited data

Results flagged for a closer look

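Probe sets without a gene name in the annotation used here lay outside the comparison above, and they too carried signal that differed between the groups. Of 17128 such probe sets 503 were higher in PKA-CQR than in EGFP arrays and 856 were lower by limma at an adjusted p under 0.05. The largest rises among them were 42.2-fold and 29.2-fold, and the largest falls 5.62-fold and 4.77-fold. No outlier test was run on these groups of 2 or 3 arrays, which are too small for it.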

How the results depend on the processing

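No called gene named here reversed its direction under the alternatives tried, while 14 uncalled genes, *Prkaca*, *Creb1* and *Myh11* among them, changed sign under at least 1. Over EGFP, the counts above were 902 up-regulated and 837 down-regulated genes, and 215 and 156 at 2-fold or more. With 1 array left out they ranged from 491 to 997 higher and from 360 to 910 lower, and from 203 to 226 and from 101 to 236 at 2-fold. The lowest counts came without EGFP replicate 1, and the highest 2-fold lower count came without EGFP replicate 2. Without PKA-CQR replicate 2, 540 were lower. Over FSH, 296 to 532 genes were higher and 163 to 371 lower, against 550 and 412 with all arrays. The t-test of the methods after adjustment called 39 and 14 genes, 25 and 2 of them at 2-fold, and 138 and 74 at an unadjusted p under 0.001. Leaving out the dimmer 0.5 of genes gave 140 and 78 at 2-fold, a minimum of 1.5-fold gave 465 and 450, and a minimum of 3-fold gave 89 and 46. Array weights gave 1043 higher and 998 lower over FSH. Centring each array on its median gave 776 higher and 920 lower over EGFP, and a second quantile normalization gave 839 and 964. A fit of only the EGFP and PKA-CQR arrays gave 868 and 779. Of 258 named genes, 219 changed their call in that t-test, 69 lost it without EGFP replicate 1, and 32 to 39 without any other EGFP or PKA-CQR array.

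The labels number the replicates in each group, and the methods describe separate groups of cultures. A figure legend of the study places the controls in groups 1 and 2 and uses their average for the third. Deviations from the group means correlated at 0.131 between EGFP and PKA-CQR replicate 1 and at -0.316 between both arrays with number 2. With 2 controls, the values of EGFP replicate 2 are those of replicate 1 with the sign changed. EGFP replicate 2 correlated at 0.41 with PKA-CQR replicate 3 and at 0.522 with FSH replicate 3. These values cannot settle the pairing, and the main fit did not pair EGFP with PKA-CQR arrays. Like-numbered arrays of FSH and PKA-CQR correlated at 0.235, 0.435 and 0.619, but FSH replicate 1 and PKA-CQR replicate 2 also correlated at 0.317. The counts and tests over FSH given above were made without pairing. The replicate block was an alternative, and it moved neither count over FSH by more than 1.5 times. With the replicate block, 1010 genes were higher and 969 lower over EGFP and 704 and 566 over FSH, and 7 named genes lost and 2 gained a call. With EGFP replicate 2 placed in the third culture group instead, as its array code stands beside those arrays, 1321 and 1178 genes were called over EGFP and 856 and 729 over FSH. Depth is not defined for arrays. Genes near the lowest signals, such as *Cyp17a1*, have less reliable differences. The cause of these changes was not tested.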
